A study of Mus with 2 samples.

Results

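Post-mitotic immature neutrophils are marrow neutrophils that carry abundant transcripts of the specific granule proteins but no detected transcript of the proliferation genes Mki67 and Top2a. They were taken from single-cell RNA sequencing of mouse bone marrow, out of cell barcodes with at least 500 unique molecular identifiers (UMIs, each standing for 1 captured transcript), at least 250 genes and at most 10% mitochondrial UMIs. Cells were chosen by these transcript counts: they were kept where Camp, Ngp and Ltf together made up at least 1% of UMIs, where Mki67 and Top2a had 0 UMIs, where the azurophil granule genes Elane, Mpo, Prtn3 and Ctsg made up less than 1%, and where F13a1 with Fn1, and the C1q genes, each had fewer than 3 UMIs. The rule kept 3018 of 18089 barcodes, 1501 of 8909 from a library labelled ground and 1517 of 9180 from a library labelled running. The study compared hindlimb bone marrow of mice from these 2 groups with 1 droplet-based library per group, made with a kit that reads the 3′ end of each transcript. The labels give no strain, age, sex, number of mice, running device or duration, nor do they define ground. Since each group is a single library, no replicates stand behind any difference below, and effects of handling or of library preparation and effects of the group cannot be told apart. All intervals are 95% intervals that cover counting error only.

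Neutrophils are made in the marrow from dividing promyelocytes and myelocytes, which stop dividing as metamyelocytes and then mature through band forms to segmented cells. Granule proteins are made in waves along this path: azurophil granule proteins in promyelocytes, specific granule proteins such as lactoferrin (Ltf), cathelicidin (Camp) and neutrophilic granule protein (Ngp) in myelocytes and metamyelocytes, and gelatinase granule proteins later still. Cells that have left the cell cycle but still hold specific granule transcripts lie between the dividing precursors and the mature neutrophils that the marrow stores and releases into blood.

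The members had a median of 8248 UMIs and 1807 genes in ground and 6716 UMIs and 1659 genes in running, so the running cells were shallower. Their summed counts were 12833560 and 10716316 UMIs. S100a8 and S100a9, which encode the calcium-binding alarmin calprotectin, together took 34.2% of these UMIs in ground and 32.1% in running. Levels are given as CPM, a gene's summed UMIs scaled to equal library totals, so those of other genes move with that share. In all, 24 barcodes occurred in both matrices, and 3 of them were members in both. Leaving out barcodes shared between matrices gave 307 genes at least 1.5-fold higher and 85 at least 1.5-fold lower in running, against 300 (4.26% of genes tested) and 89 (1.26%) with them.

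The label was checked with 5 immature neutrophil markers, of which Camp, Ngp and Ltf were used to choose the cells and serve as description. Lcn2, which encodes the iron-siderophore-binding protein neutrophil gelatinase-associated lipocalin, was detected in 100% of ground and 99.9% of running members. Ly6g, the surface protein that defines mouse neutrophils, was detected in 93.0% and 95.6%. B cells, which should lack these genes and had medians of 3304 and 3674 UMIs, carried a UMI of Ly6g in 6.97% and 6.78% of cells. For Lcn2 the shares in B cells were 57.8% and 50.04%, and their levels were 380 and 242 CPM, against 16949.5 and 13258 CPM in the members. Both markers therefore stood far above the level of free RNA in B cells. Transcripts defining other lineages were scarce in the members. Summed CPM over each marker list were 66.2 in ground and 81.7 in running for 6 B cell genes, 20.3 and 27.0 for 6 T cell genes, 400 and 393 for 7 erythroid genes, 33.0 and 35.5 for 6 monocyte genes and 27.4 and 32.0 for 6 macrophage genes. Basophil or mast cell genes stood at 8.73 and 51.6 CPM and stromal genes at 7.64 and 18.8 CPM. In the basophil list the running value was carried by Prss34, of which 228 of 298 UMIs lay in 1 cell, and Mcpt8, with 87 of 155 UMIs in 1 cell. Cd4, Epx, Ppbp, Lepr, Col1a2 and Adipoq had 0 UMIs in the ground members, whereas no gene of the marker lists had 0 UMIs in the running members. Without the 52 ground and 39 running members that held 0.2% or more UMIs of other lineages, 279 genes were at least 1.5-fold higher and 93 at least 1.5-fold lower in running.

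The thresholds cut through a continuum. Just inside the granule threshold, 46 ground and 64 running cells had 1 to 1.2% of UMIs from Camp, Ngp and Ltf, and just outside it 57 and 77 cells had 0.8 to 1%. Ly6g stood at 784 CPM inside and 971 CPM outside in ground, and at 741 and 654 CPM in the running library. Cxcr2, the chemokine receptor used by mature neutrophils to leave the marrow, stood at 1165 and 1164 CPM in the ground library and at 1049 and 1087 CPM in the running library. Cells with exactly 1 UMI of Mki67 or Top2a, 295 in ground and 205 in running, also resembled the members. Their Ly6g stood at 825 and 892 CPM, whereas cells with 2 or more UMIs, 589 and 417, stood at 264 and 247 CPM. Few cells lay near the other limits: 11 ground and 6 running cells held 2 UMIs of F13a1 and Fn1, just inside, and 9 and 0 held 3, just outside. Because a transcript is more easily missed in a shallow cell, the absence of Mki67 and Top2a is not proof that a cell had stopped dividing. Of 8 other mitosis genes, at least 1 UMI was found in 23.9% of ground and 17.3% of running members, against 74.8% and 72.7% of the dividing precursors and 13.9% and 11.6% of mature neutrophils. The members thus lay near the mature cells in this respect, and 35 ground and 11 running members had 3 or more such UMIs.

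Post-mitotic immature neutrophils made up 16.8% of ground (16.1 to 17.6%) and 16.5% of running barcodes (15.8 to 17.3%). The ratio of shares, running over ground, was 0.981 (0.919 to 1.05), an interval that includes 1. The neighbouring stages differed more between the libraries. Dividing precursors, which met the same rule except for at least 1 UMI of Mki67 or Top2a, made up 9.92% (884 cells) and 6.78% (622 cells), a ratio of 0.683 (0.619 to 0.753). Mature neutrophils, with less than 1% granule UMIs, 0 UMIs of Mki67 and Top2a and at least 5% of UMIs from S100a8 and S100a9, made up 22.2% (1982 cells) and 26.4% (2419 cells), a ratio of 1.18 (1.12 to 1.25). Among granule-rich cells alone, dividing and not, the post-mitotic share was 62.9% (61.0 to 64.9%) in ground and 70.9% (68.9 to 72.8%) in running. Depth bears on these shares, since 295 of the ground and 205 of the running dividing precursors had just 1 UMI of Mki67 or Top2a. At equal depth only the members' share of all barcodes was recomputed. The precursor ratio and the post-mitotic share of granule-rich cells were not. When every cell was thinned to 1000 UMIs before the rule was applied, members made up 22.9% and 21.1%, a ratio of 0.921 (0.870 to 0.974), and when members with a UMI of the 8 other mitosis genes were left out the ratio was 1.07 (0.989 to 1.15). The ratio thus lay below or above 1 depending on the rule.

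**Figure D1:**
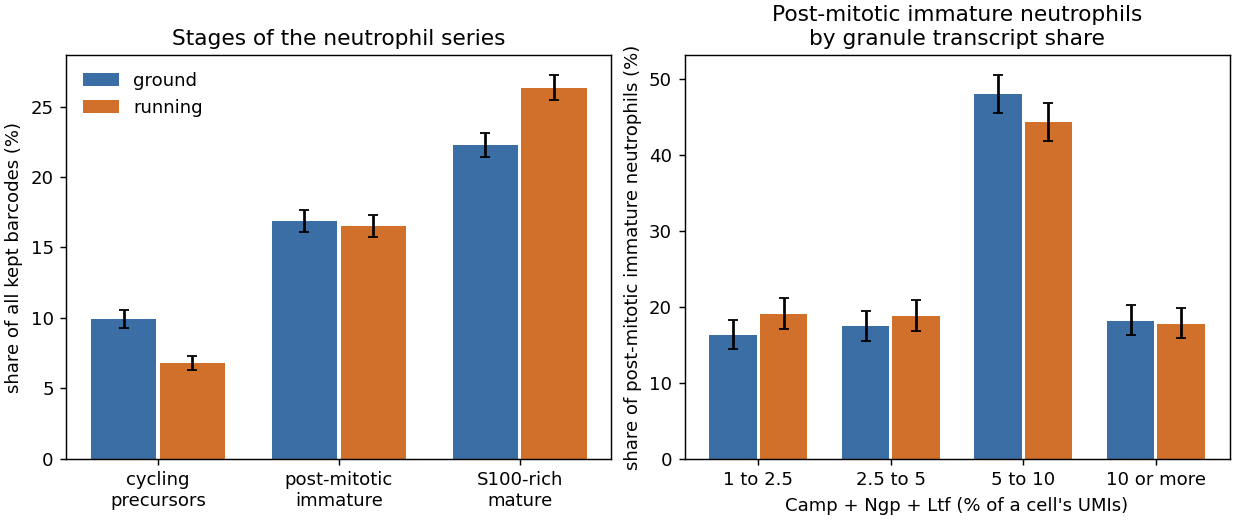
Share of cells by stage, with exact binomial 95% intervals as bars: the left panel gives the share of all kept barcodes (%) in dividing precursors, post-mitotic immature neutrophils and mature neutrophils, and the right panel the share of the post-mitotic immature neutrophils (%) in 4 ranges of granule transcript share. The middle pair on the left stands at 16.8% and 16.5%, between a lower running value for dividing precursors and a higher one for mature cells.

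Within the members, the share of UMIs from Camp, Ngp and Ltf ran from 1.01 to 17.6% in ground and from 1.0 to 14.4% in running, with medians of 7.18% and 6.71%. Cells with 1 to 2.5% made up 16.3% of ground and 19.1% of running members, cells with 2.5 to 5% made up 17.5% and 18.8%, cells with 5 to 10% made up 48.0% and 44.4%, and cells with 10% or more made up 18.2% and 17.8%. The intervals of the ground and running shares overlapped in each range. Depth changed along this axis too, from a median of 6733 UMIs in the lowest range to 11150 in the highest in ground, and from 5104 to 8930 in running.

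Other genes followed the granule axis in both libraries, and their levels are given here as CPM computed after leaving Camp, Ngp and Ltf out of each total. Retnlg, a secreted resistin-like protein of maturing neutrophils, went down from 34199 in the lowest granule range through 23256 and 6981 to 1690.5 in the highest in ground. In running the same 4 levels were 34906, 23656, 7682 and 1389.5. Cxcr2 went down from 1113 to 154 in ground and from 969 to 123 in running. The 20 receptors and effectors of mature neutrophils summed to 41421 and 42424 in the lowest range and 4434 and 4251 in the highest. Low granule share was thus paired with high mature transcripts in both libraries.

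Several genes ran the other way, up with granule share. Fcnb, which encodes the pattern-recognition lectin ficolin B, went up from 2.53 (4 UMIs) to 400 in ground and from 6.56 (10 UMIs) to 342 in running. Cebpe, the transcription factor needed for specific granule genes, went up from 98.2 to 642 in ground and from 163 to 692 in running. Cybb, the catalytic subunit of the NADPH oxidase, went up from 745 to 3336 in ground and from 1191 to 3835 in running. Chil3, a chitinase-like secreted protein, went up from 435 to 8019 and from 295 to 7047. The 17 tested genes for endoplasmic reticulum chaperones and secretion summed to 676 and 868 in the lowest range and 2366 and 2415 in the highest. Mmp8, neutrophil collagenase, is a specific granule protein that did not follow Camp and Ltf: it stood at 4802, 4690, 3031 and 792 from the lowest to the highest range in ground and at 5116, 5285, 3779 and 1438 in running. Ly6g went up from 807 to 1087 and from 742 to 1247.

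**Figure D2:**
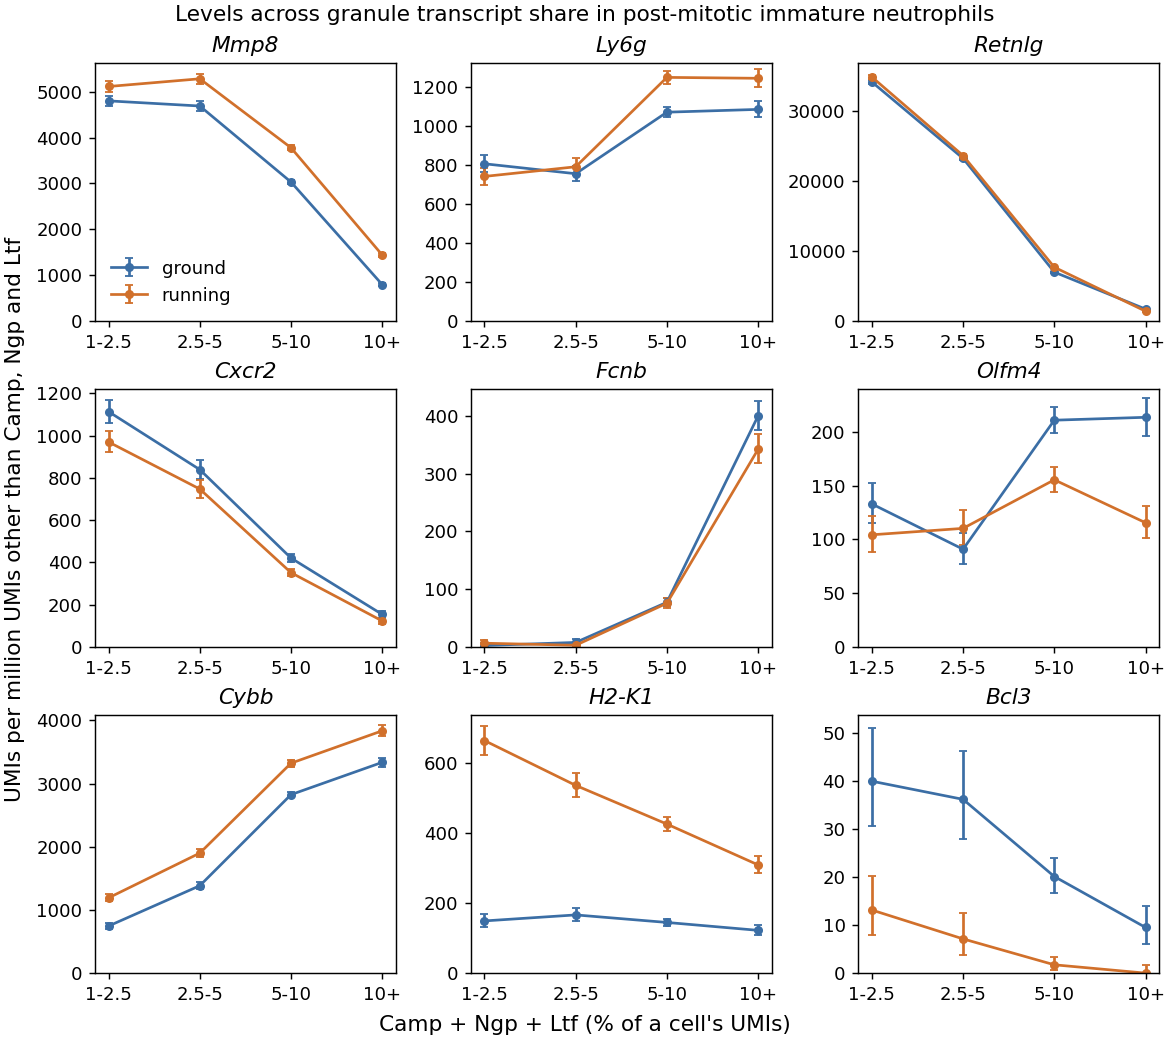
Levels of 9 genes (CPM with Camp, Ngp and Ltf left out of the total, linear axes from 0) in post-mitotic immature neutrophils of 4 ranges of granule transcript share (%), for ground and running, with exact Poisson 95% intervals. Retnlg, Cxcr2 and Mmp8 go down and Fcnb and Cybb go up with granule share in both libraries, while H2-K1 is above ground and Bcl3 below ground in running in each range.

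Set against the dividing precursors, the members held fewer transcripts of DNA replication and division, which the rule on Mki67 and Top2a selects for, and more of later neutrophil stages. Of 9016 genes with at least 100 UMIs, 15.1% were at least 1.5-fold higher in the members in ground and 18.5% in running, and 36.4% and 35% were at least 1.5-fold lower. All 17 S phase genes and all 22 mitosis genes tested outside the rule were at least 1.5-fold lower in both libraries, with median log2 ratios of -3.88 and -4.22 for S phase and -5.27 and -5.49 for mitosis. The histone gene Hist1h2ab stood at 2.73 CPM in members and 370 CPM in precursors of the ground library and at 1.59 and 360 CPM in the running library. The genes highest in the members by the smaller ratio of the 2 libraries were Mcam, Mmp8, Thbs1, Gpr27, Retnlg, Hopx, Nt5e, Arg2, Fpr1 and Crtac1. Mmp8 stood at 2798 CPM in members and 522 CPM in precursors of the ground library, a log2 ratio of 2.42, and at 3474 and 587 CPM in the running library, a log2 ratio of 2.56. Fpr1, the receptor for bacterial formyl peptides, had log2 ratios of 2.24 and 2.41. Mature neutrophil receptors and effectors were at least 1.5-fold higher in the members for 18 of 20 genes in ground and 19 of 20 in running, and gelatinase granule and secretory vesicle genes for 9 of 11 in both. In contrast, 11 of 12 genes of nucleotide and ribosome biogenesis were at least 1.5-fold lower in both.

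Set against mature neutrophils, the members held more transcripts of many specific granule and most cholesterol synthesis genes, and fewer of most mature receptors and effectors. Of 8178 genes tested, 21.5% in ground and 21% in running were at least 1.5-fold higher in the members, and 23.9% and 22.3% were at least 1.5-fold lower. Apart from Camp, Ltf and Ngp, which defined the boundary, the genes highest in the members were Tmem45a2 (0 UMIs in the mature cells of running), Orm1, Tbc1d24, Chil3, Ica1, Zmpste24 and Marveld1. Orm1, an acute-phase plasma glycoprotein gene, stood at 97.9 CPM in members and 2.43 CPM in mature cells of the ground library and at 96.1 and 1.24 CPM in the running library, log2 ratios of 5.33 and 6.27. Zmpste24, the metalloprotease that processes prelamin A, stood at 252 and 10.4 CPM in the ground library and 284 and 11.3 CPM in the running library, log2 ratios of 4.59 and 4.65. Of 14 specific granule genes outside the rule, 7 in ground and 8 in running were at least 1.5-fold higher and none was lower by that much. Gelatinase granule genes were split, with 2 of 10 higher and 3 lower in both. Cholesterol synthesis genes were at least 1.5-fold higher for 16 of 18 genes in both libraries, with median log2 ratios of 1.58 and 1.65. Endoplasmic reticulum chaperone and secretion genes were at least 1.5-fold higher for 12 of 19 genes in ground and 11 of 19 in running.

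At the other end of that comparison, the genes lowest in the members were Prr5l, Wfdc17, Cd244a, Il1b, Cxcr1, Steap4, Ccrl2, Fgl2, Pla2g7 and Ifitm1. Il1b, the inflammatory cytokine interleukin-1β, stood at 73.8 CPM in members and 2593 CPM in mature cells of the ground library and at 97.0 and 2434 CPM in the running library, log2 ratios of -5.13 and -4.65. Mature receptors and effectors were at least 1.5-fold lower for 19 of 20 genes in ground and 18 of 20 in running. Immediate early genes were at least 1.5-fold lower for 13 of 18 genes in ground and 15 of 18 in running, and genes of granulocyte colony-stimulating factor (G-CSF) and STAT3 signalling and the acute phase for 11 and 10 of 13. Of 16 genes of retention, egress and adhesion, 9 were lower by that much in both libraries, and 4 in ground and 5 in running were higher.

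Between running and ground, the members held more MHC class I transcripts in running and more of most listed interferon-stimulated genes. They held fewer transcripts of Lipg, Bcl3 and several G-CSF and STAT3 genes. Some of these genes stood below their level in B cells, and whether free RNA gave part of those counts was not tested. The genes at either end were ranked among 5298 genes with at least 200 UMIs, without antigen receptor, mitochondrial, ribosomal, haemoglobin, unnamed and sex-linked genes and markers of other cell types. Of 7044 genes with at least 100 UMIs over both libraries, 300 (4.26%) were at least 1.5-fold higher in running and 89 (1.26%) at least 1.5-fold lower. The median log2 ratio over these genes was 0.11, with 5th and 95th percentiles of -0.29 and 0.55, and 70.9% of genes had a ratio above 0. When the ratios were centred on that median, 181 genes were higher and 147 lower, and with TMM scaling 168 were higher and 154 lower, so the excess of higher genes depends on the scaling. Ratios of genes and lists are read against 0.11. The lists were chosen with earlier results of these data known, so their counts beside those of all genes are a description only. Pairs of levels give ground and then running, and a number in parentheses after a pair is the log2 ratio of running over ground, with its interval where a range follows.

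**Figure D3:**
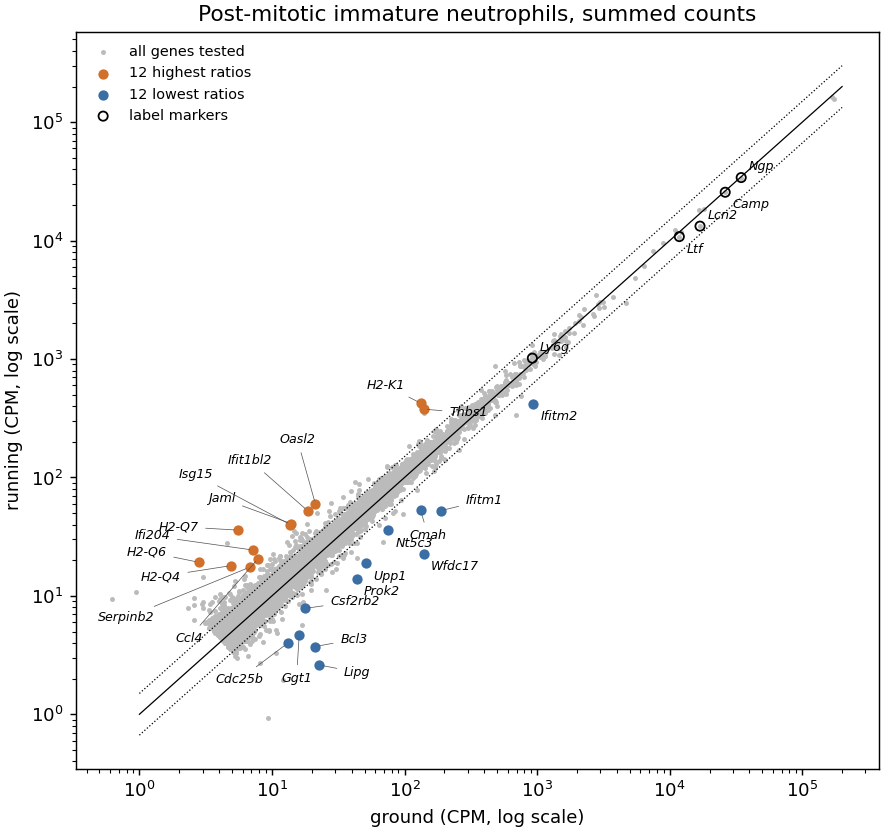
CPM of each gene tested in post-mitotic immature neutrophils, ground on the horizontal and running on the vertical axis, both logarithmic, with the line of equal levels and dotted lines at 1.5-fold. The 12 highest and 12 lowest ratios are named and lie outside the dotted lines, the label markers lie close to the line of equal levels, and Ighg1, with 0 UMIs in running, is not drawn.

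The MHC class I genes encode the molecules that show peptides from inside the cell to CD8 T cells, and they held 4 of the 12 highest ratios. H2-K1 (mm10, chromosome 17, 33996012 to 34000619), a classical class I heavy chain, stood at 133 CPM in the ground library (127 to 139) and 423 CPM in the running library (411 to 436), a log2 ratio of 1.67 (1.59 to 1.75). H2-Q7 (chromosome 17, 35439140 to 35443773) stood at 5.53 and 35.9 CPM, a log2 ratio of 2.70, H2-Q6 at 2.81 and 19.2 CPM, a log2 ratio of 2.78, and H2-Q4 at 4.91 and 18.0 CPM, a log2 ratio of 1.88. The Q-region genes are near-identical copies, so the split of counts among them is uncertain. The labels give no strain, and whether the libraries share a strain, and so the same class I alleles, was not tested. The class I ratios are read with that limit. Immunoglobulin heavy chain transcripts in the members differed in class, with 129 and 0 UMIs of Ighg1 and 8 and 101 UMIs of Ighg2c, and the source of that difference was not tested. B2m, the light chain shared by class I molecules, stood at 482 and 878 CPM (log2 ratio 0.86, 0.82 to 0.91), and H2-D1, the other classical heavy chain of this set, at 573 and 790 CPM (0.46). Tap1, a subunit of the transporter that loads peptides, stood at 27.5 and 47.5 CPM (0.79). Over the list, 7 of 20 genes tested were at least 1.5-fold higher against 4.26% of all genes, and none was lower by that much. The median log2 ratio was 0.41, and 0.26 over the genes of the list with at least 500 UMIs. Calr, Pdia3 and Canx, general chaperones that also serve class I assembly, had ratios below 0 (-0.28, -0.13 and -0.01).

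Higher class I transcripts were spread over the members. H2-K1 was found in 55.9% of ground and 87.4% of running members, and in 22.4% (20.3 to 24.7%) and 55.0% (52.4 to 57.5%) after each cell was thinned to 2000 UMIs, which left out 61 ground and 26 running cells. B2m was found in 93.7% and 98.4% before and 59.5% and 83.4% after thinning. The class I list gave a median of 4 UMIs per 2000 in ground cells and 6 in running cells, and a mean of 4.15 and 6.36. H2-K1 was higher in running in each granule range, from 149 and 664 CPM without Camp, Ngp and Ltf in the lowest to 122 and 309 in the highest. The gene was also higher in running in the other stages, with H2-K1 log2 ratios of 1.31 in dividing precursors and 1.87 in mature neutrophils. In B cells, where the gene is strongly expressed, H2-K1 stood at 872 and 1038 CPM. H2-Q7 stood there at 164 and 234 CPM, H2-Q6 at 140 and 171 CPM, H2-Q4 at 100 and 124 CPM and B2m at 1098 and 1229 CPM. These levels were above those of the members in both libraries, and whether free RNA gave part of the members' counts was not tested.

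Most of the listed interferon-stimulated genes, which cells switch on in response to type I interferons, were also higher in running. Of 32 tested, 19 (59.4%) were at least 1.5-fold higher against 4.26% of all genes, none was lower by that much, and 30 had a ratio above 0. The median log2 ratio was 0.84, and 0.55 over the genes of the list with at least 500 UMIs. Ifi204, a DNA-sensing p200 family protein, stood at 7.25 CPM in the ground library and 24.4 CPM in the running library (log2 ratio 1.75, 1.40 to 2.11). The ubiquitin-like modifier Isg15 had levels of 13.7 and 40.03 CPM (1.55, 1.29 to 1.81), and Oasl2, of the oligoadenylate synthetase family, at 21.3 and 59.7 CPM (1.49, 1.28 to 1.70). Ifi27l2a stood at 141 and 351 CPM (1.32, 1.24 to 1.40). Ifit1bl2, an Ifit family gene outside the list, stood at 18.5 and 52.4 CPM (1.5). In B cells Ifit1bl2 stood at 1.57 and 2.29 CPM, Isg15 at 10.8 and 19.0 CPM and Oasl2 at 8.17 and 18.1 CPM. Ifi204 stood there at 6.44 and 13.02 CPM and Ifi27l2a at 463 and 700.1 CPM. The ground level of Ifi204 in the members was thus close to that in B cells, and Ifi27l2a was below it in both libraries. Whether free RNA gave part of these counts was not tested.

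The interferon difference was uneven among members of the list. Ifitm3, the most abundant gene of the list, was lower in running, at 1345 and 1106 CPM (-0.28), and Trim30a stood at 82.2 and 71.6 CPM (-0.20). Stat2 and Samd9l had log2 ratios of 0.05 and 0.07, which centring on the median of all genes turns below 0. The sum of the list, to which Ifitm3 gave the most UMIs, moved less than the median ratio of its genes. Members held a mean of 5.27 list UMIs per 2000 in ground and 6.09 in running, with a median of 5 in both libraries. By granule range the median log2 ratio of the list was 0.43, 0.67, 0.63 and 0.93 from lowest to highest, and it was 0.70 in dividing precursors and 0.60 in mature neutrophils. The level itself was higher in cells with fewer granule transcripts, with summed CPM without Camp, Ngp and Ltf of 3496 in the lowest and 1925 in the highest granule range of ground and 4067 and 2232 in running.

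**Figure D4:**
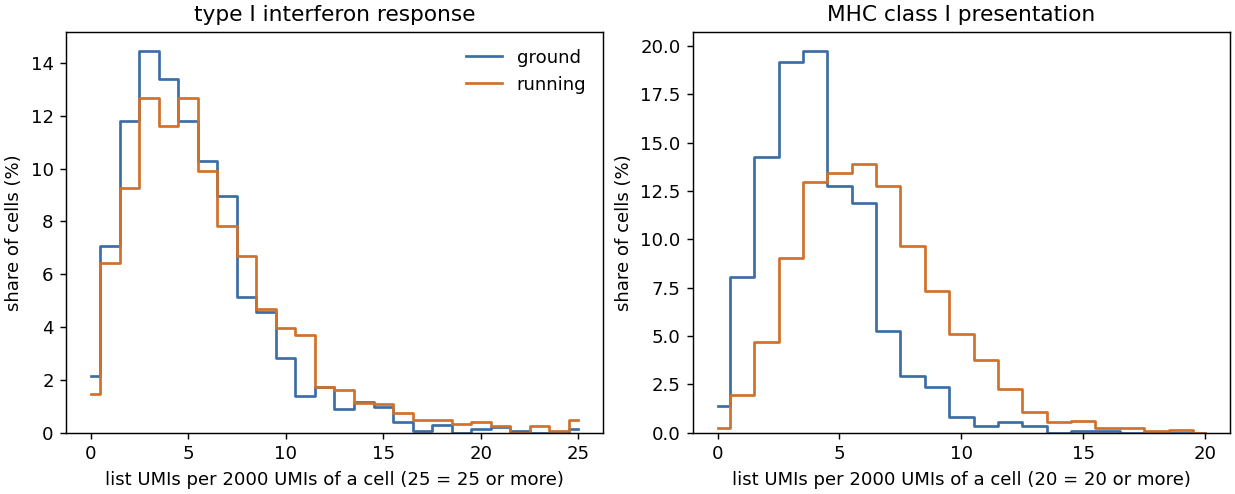
Share of post-mitotic immature neutrophils (%) by the number of UMIs they held from the interferon list (left) and the MHC class I list (right) after thinning each cell to 2000 UMIs, with the last step gathering higher values. The interferon curves have the same median of 5, and the class I curve of running is moved as a whole, from a median of 4 to 6.

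The other highest genes were Jaml, Thbs1, Ccl4 and Serpinb2. Thbs1, the extracellular matrix protein thrombospondin 1, stood at 140 CPM in the ground library (134 to 147) and 377 CPM in the running library (366 to 389), a log2 ratio of 1.43. It stood higher in the members than in either neighbouring stage, with 27.1 and 64.5 CPM in dividing precursors and 63.3 and 155 CPM in mature neutrophils, and its level in B cells was 6.13 and 11.9 CPM. Serpinb2, plasminogen activator inhibitor 2, stood at 6.78 and 17.4 CPM (1.36), and the adhesion molecule Jaml at 13.9 and 40.8 CPM (1.55). Jaml stood in B cells at 17.9 and 29.0 CPM, so that its ground CPM in the members was below that of B cells. The members were deeper than B cells, so CPM does not compare free transcripts per cell. The chemokine Ccl4 stood at 7.87 and 20.6 CPM (1.39), but 46 of its 221 running UMIs lay in 1 cell and B cells held 8.01 and 11.6 CPM.

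Among the lowest genes, Lipg, endothelial lipase, stood at 22.5 CPM in the ground library and 2.61 CPM in the running library, a log2 ratio of -3.11 (-3.72 to -2.55). It was 27.0 and 4.15 CPM in dividing precursors and 0.628 and 0.121 CPM in B cells. Prok2, a secreted prokineticin, stood at 43.5 and 13.9 CPM (-1.64), Upp1, uridine phosphorylase, at 51.5 and 18.8 CPM (-1.45), and Ggt1, a glutathione-cleaving enzyme, at 16.1 and 4.67 CPM (-1.78). Cmah, which makes the sialic acid Neu5Gc, stood at 132 and 52.7 CPM (-1.33), and Nt5c3, a nucleotidase, at 75.04 and 35.7 CPM (-1.07). Cdc25b, a phosphatase that promotes entry into mitosis, stood at 13.2 and 4.01 CPM (-1.72). Csf2rb2, the interleukin-3 receptor beta chain, stood at 17.8 and 7.84 CPM (-1.18). Cmah and Cdc25b were as high or higher in B cells, at 132 and 107 CPM and at 87.8 and 75.1 CPM, whereas Prok2, Upp1, Ggt1 and Csf2rb2 were below 6 CPM there in both libraries.

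Ifitm2, Ifitm1 and Wfdc17 were also among the 12 lowest ratios, and Ifitm2 stood above its level in B cells. Ifitm2 (mm10, chromosome 7, 140954837 to 140959686), a transmembrane protein that restricts virus entry, stood at 931 CPM in the ground library (915 to 948) and 419 CPM in the running library (407 to 432), a log2 ratio of -1.15 (-1.20 to -1.10). Its relative Ifitm1 (chromosome 7, 140967429 to 140969827) stood at 187 and 52.4 CPM (-1.84). Wfdc17, a small secreted protein of the whey acidic family, stood at 139 and 22.6 CPM (-2.62), with 104 of its 1786 ground UMIs in 1 cell. For Wfdc17 and Ifitm1 the members' CPM were close to or below those of B cells. B cells held 223 and 49.2 CPM of Wfdc17 and 217 and 49.7 CPM of Ifitm1, against 4482 and 613 CPM and 4954 and 902 CPM in mature neutrophils. The members were deeper than B cells (medians of 8248 and 6716 against 3304 and 3674 UMIs), so CPM does not compare free transcripts per cell. Whether free RNA gave these counts was not tested, and the differences are not read as expression in the members. Ifitm2 stood at 238 and 135 CPM in B cells, below the members in both libraries.

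Genes of G-CSF and STAT3 signalling and of the acute phase were lower in running. G-CSF is the main growth factor of neutrophil production and acts through STAT3. Of 12 genes tested, 5 were at least 1.5-fold lower against 1.26% of all genes, none was higher by that much, and the median log2 ratio was -0.37. Bcl3 (mm10, chromosome 7, 19808462 to 19822824), a nuclear IκB protein, stood at 21.1 and 3.73 CPM, a log2 ratio of -2.5 (-3.02 to -2.02). In each granule range it was lower in running, from 39.9 against 13.1 CPM without Camp, Ngp and Ltf in the lowest to 9.5 against 0 UMIs in the highest. B cells held 23.6 and 17.7 CPM of Bcl3. Pim1, a kinase that promotes survival, stood at 97.2 and 48.7 CPM (-1.0), Socs3, a feedback inhibitor of cytokine receptors, at 10.2 and 6.16 CPM (-0.73), Il4ra at 31.1 and 18.9 CPM (-0.71) and the glycoprotein Lrg1 at 751 and 491 CPM (-0.61). Pim1 stood at 188 and 142 CPM in B cells, above the members. Bcl3 in the members was also below its level in B cells in both libraries. Whether free RNA gave part of these counts was not tested. Il6ra, the interleukin-6 receptor, had a ratio above 0, at 45.6 and 60.5 CPM (0.41). In dividing precursors 2 of 11 genes of the list were at least 1.5-fold lower, with a median of -0.16, and in mature neutrophils 6 of 12, with a median of -0.48. Bcl3 had log2 ratios of -1.07 and -1.11 there.

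**Figure D5:**
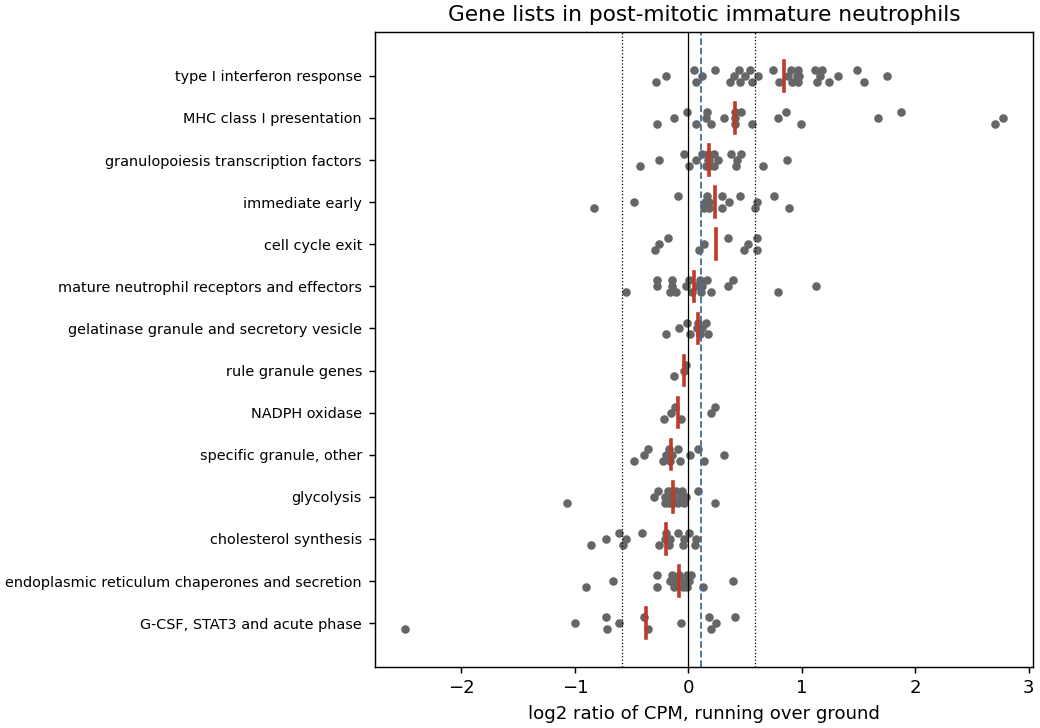
Log2 ratio of CPM, running over ground, for each tested gene (points) of 14 gene lists in post-mitotic immature neutrophils, with the list median as a red bar, the median of all genes (0.11) as a dashed line and 1.5-fold as dotted lines. The interferon list has its median at 0.84 and the class I list at 0.41, and the G-CSF, STAT3 and acute phase list has its median at -0.37 with Bcl3 at -2.5.

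No granule gene tested differed by 1.5-fold, where 4.26% of all genes were higher and 1.26% lower by that much, so short lists would hold few such genes. The rule's own genes stood at 26261 and 25627 CPM for Camp, 34671 and 34096 CPM for Ngp and 11835 and 10818.5 CPM for Ltf, given as description. Of 14 other specific granule genes none differed by 1.5-fold in either direction, but 10 had intervals below 0 and 2 above 0. Their median log2 ratio was -0.15, and -0.27 after centring on the median of all genes. Lcn2 stood at 16949.5 and 13258 CPM (-0.35), the acute-phase haemoglobin scavenger Hp at 1656 and 1266 CPM (-0.39) and Olfm4, which marks a subset of neutrophils, at 170 and 122 CPM (-0.48). Of 2182 ground UMIs of Olfm4, 74 lay in 1 cell. Mmp8 stood at 2798 and 3474 CPM (0.31). Per 2000 UMIs, ground cells held a median of 60 UMIs of the specific granule list and running cells 52. No gene differed by 1.5-fold among 10 gelatinase granule and secretory vesicle genes (median 0.08, below 0 after centring), 11 azurophil granule genes outside the rule (median -0.03) or 6 NADPH oxidase genes (median -0.09). Within the oxidase, Cybb stood at 2270 and 2663 CPM (0.23) and its partner Cyba at 1662 and 1430 CPM (-0.22).

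Transcription factors and receptors of maturation differed little as groups. Of 20 granulopoiesis transcription factors, Irf8 and Cebpa were at least 1.5-fold higher against 4.26% of all genes, none was lower by that much, and the median log2 ratio was 0.18. Cebpe stood at 356 and 417 CPM (0.23) and Cebpb, which acts in emergency granulopoiesis, at 283 and 211 CPM (-0.42). Of Irf8, which directs monocyte and dendritic cell fates, 35 of 146 ground UMIs and 43 of 223 running UMIs lay in 1 cell each. Of 20 mature receptors and effectors, 2 were at least 1.5-fold higher against the same 4.26%, and the median was 0.05, which turned to -0.06 after centring and to -0.08 with TMM scaling. Il1rn, the interleukin-1 receptor antagonist, stood at 42.4 and 92.4 CPM (1.12, 0.97 to 1.28), against 3.93 and 5.66 CPM in B cells. Il1r2, the decoy receptor of the same cytokine, stood at 94.1 and 64.3 CPM (-0.55). The chemokine Ccl6 stood at 108 and 186 CPM (0.79), with 108 and 106 CPM in B cells. Cd101, a surface protein gained late in maturation, stood at 4.36 and 8.87 CPM (1.02).

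Genes tied to withdrawal from the cell cycle had a median above that of all genes. Btg2 and Tob1, antiproliferative adaptors of mRNA deadenylation, stood at 265 and 402 CPM (0.60) and at 63.8 and 97.3 CPM (0.61), and were the 2 of 10 genes at least 1.5-fold higher against 4.26% of all genes, with a list median of 0.24. The cell cycle inhibitor Cdkn2d stood at 169 and 138 CPM (-0.29). Among 9 mitosis genes with enough UMIs, only Ccnb2 was at least 1.5-fold lower, at 6.86 and 3.92 CPM (-0.81), against 1.26% of all genes. The median of the mitosis list was -0.26. Immediate early genes, a fast transcriptional response that cell isolation can also set off, had a median of 0.24 over 16 genes. Egr1 stood at 52.8 and 97.8 CPM (0.89) and Ier5 at 73.6 and 125 CPM (0.76), while Fosb was lower, at 19.9 and 11.2 CPM (-0.83). Among 14 NF-κB and inflammatory genes, Ptgs2, cyclooxygenase 2, stood at 14.8 and 28.8 CPM (0.96) and the chemokine Cxcl2 at 259 and 171 CPM (-0.60).

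Most glycolysis and cholesterol synthesis genes had ratios below 0, whereas 70.9% of all genes had a ratio above 0. Glycolysis genes had a median log2 ratio of -0.13 with 17 of 19 below 0. Only the glucose transporter Slc2a1 passed 1.5-fold, at 10.8 and 5.13 CPM (-1.07), against 1.26% of all genes lower by that much. In mature neutrophils the glycolysis median was -0.63, and 10 of 19 genes were at least 1.5-fold lower. In dividing precursors it was -0.10, and none of 18 was. The 17 cholesterol synthesis genes tested in the members had a median of -0.20. Of these, 14 were below 0, and 3 were at least 1.5-fold lower against 1.26% of all genes. Fdps, which makes farnesyl pyrophosphate, stood at 30.5 and 16.9 CPM (-0.85), Nsdhl at 7.25 and 4.39 CPM (-0.72) and Idi1 at 23.5 and 15.4 CPM (-0.61). The cholesterol difference was larger in cells with fewer granule transcripts: its median by range was -0.66, -0.61, -0.22 and -0.05 from the lowest to the highest, although the genes with enough UMIs numbered 12 in the lowest range and 17 in the highest. Among 17 endoplasmic reticulum chaperone and secretion genes the median was -0.08. Creld2 stood at 9.43 and 5.04 CPM (-0.90) and Manf at 43.9 and 27.8 CPM (-0.66), both induced when unfolded proteins accumulate, whereas the chaperone regulator Dnajb9 stood at 80.4 and 106 CPM (0.39). Asns, asparagine synthetase, stood at 21.6 and 13.9 CPM (-0.63). Oxidative phosphorylation genes had a median of 0.05 over 23 genes, which centring turns below 0, and none differed by 1.5-fold. Ribosomal protein genes took 3.44% of UMIs in ground and 3.60% in running.

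The remaining lists held few genes past 1.5-fold. All 8 genes of nucleotide and ribosome biogenesis that were tested had ratios above 0, against 70.9% of all genes. Of these 8, 2 were at least 1.5-fold higher, against 4.26% of all genes, and the median was 0.35. The medians were -0.07 over 10 glucocorticoid response genes, 0.24 over 6 genes of the integrated stress response, 0.03 over 7 heat shock genes and 0.05 over 9 genes of iron and haem handling, and the last pair turn below 0 after centring. Among 16 genes of retention, egress and adhesion none differed by that much and the median was 0.01, below 0 after centring. Cxcr4, the receptor that holds neutrophils in the marrow, stood at 136 and 169 CPM (0.32), Cxcr2 at 478 and 431 CPM (-0.15) and Itgb1, integrin beta 1, at 17.1 and 24.4 CPM (0.51). Rcn2, which encodes reticulocalbin 2, had 16 UMIs in ground and 34 in running (1.25 and 3.17 CPM, log2 ratio 1.35, 0.45 to 2.30), with B cells at 4.71 and 20.8 CPM. Nrp2, neuropilin 2, had 4 and 1 UMIs, too few to compare. In the BCL2 family, which governs cell death, the proapoptotic Bbc3 stood at 3.19 and 6.07 CPM (0.92) and the antiapoptotic Bcl2 at 3.74 and 6.81 CPM (0.86). They were the 2 of 9 genes at least 1.5-fold higher, against 4.26% of all genes. Mcl1, the main survival factor of neutrophils in the list, stood at 427 and 374 CPM (-0.19). Hist1h1c, a linker histone, was the gene past 1.5-fold among 11 of extracellular traps and chromatin, against 4.26% of all genes, at 84.8 and 127 CPM (0.59). Cd33, a sialic acid receptor, stood at 255 and 374 CPM (0.55). Cstdc5, a stefin-family protease inhibitor, stood at 64.4 and 39.5 CPM (-0.71), with 146 of its 827 ground UMIs in 1 cell.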

How the data were processed

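Single-cell libraries of ground and running marrow (1 each) were used. The deposited matrices hold raw UMI counts. Per the file headers the software was Cell Ranger 5.0.0, and the submitters' processing notes list STAR and mm10. Other upstream filters are not given in the sources used here. Both matrices start at about 500 UMIs (lowest totals 501 and 500).

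Members' counts were summed per library and scaled to CPM, with exact Poisson, conditional binomial and Clopper-Pearson intervals at 95%. Ratios of shares carry a normal approximation on the log scale. No test was made. Doublets were called with Scrublet in scanpy 1.11.5 (61 ground and 29 running members) and kept, and their removal was an alternative. Genes needed 100 UMIs over both libraries, and 20 within a granule range. Counts were also simulated for this comparison (7032 genes) as Poisson draws, the counting error that the intervals assume, so their coverage (95.4% of ratios) was given by that choice. In these draws 99.5% of 191 genes changed 2-fold passed 1.5-fold, as did 0.629% of 6841 unchanged genes. The draws held no clumping of UMIs in single cells and no difference between libraries. These shares therefore describe counting error only and do not say how many observed differences belong to the group.

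Named were the 12 genes at either end of the ranking of 5298 genes that had 200 UMIs or more (without mitochondrial, ribosomal, haemoglobin, antigen receptor, unnamed, sex-linked and other cell types' marker genes), 2 to 4 members per list, the 10 highest and lowest per stage, rule and label genes, Rcn2, Nrp2 and Itgb1. Members and lists (30 lists; 449 of 452 genes matched) were chosen with earlier results of these data known. Mx1, Mx2 and BC100530 were not analysed here. Coordinates are from RefSeq GRCm38.p6, matched by symbol. edgeR 4.0.16 in R 4.3.3 gave TMM factors only, and other steps used pandas 2.3.3, scipy 1.17.1 and numpy 2.4.6 in Python 3.11.15.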

Additional observations from a re-analysis of the deposited data

Results flagged for a closer look

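Irf8 and Fosb moved in opposite directions in the members and in a neighbouring stage. The difference was not tested, since each stage rests on 1 library per group. Irf8 had a log2 ratio, running over ground, of 0.87 in post-mitotic immature neutrophils and of -0.79 (-1.21 to -0.38) in dividing precursors, with 174 and 70 UMIs there. In the members 35 of 146 and 43 of 223 UMIs lay in 1 cell of each library. Fosb had a log2 ratio of -0.83 in the members and of 0.67 (0.40 to 0.93) in mature neutrophils, with 188 and 321 UMIs there.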

How the results depend on the processing

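The 24 genes with the highest and lowest ratios stayed past 1.5-fold in their direction under each alternative that tested them (14 were tested after thinning to 2000 UMIs and 13 at 500 UMIs or more). They were picked for the size of their ratios in these data. UMI cuts leave a gene's ratio unchanged, and centring and TMM shift all ratios by the same amount. This outcome was therefore largely given by the choice and is a description only. The share of members had a ratio of 1.07 without cells that held a UMI of 8 further mitosis genes. Counts of genes higher and lower were 181 and 147 after centring on the median of all genes, 168 and 154 with TMM scaling, 938 and 368 among genes with at least 20 UMIs, and 66 and 29 among those with at least 500, fewer genes being tested there. Thinning gave 163 higher genes of 4114 tested, and the mean of CPM over cells gave 186 lower genes. The specific granule median was -0.22 without 6 abundant genes, -0.27 centred and -0.28 with TMM, and the mature receptor median was -0.062 when centred, -0.076 with TMM and -0.018 without those 6 genes. At 500 UMIs or more the interferon median was 0.55 and the class I median 0.26. Without doublets, and without the 52 ground and 39 running members with 0.2% or more UMIs of other lineages (an alternative added after seeing the data, as was leaving out shared barcodes), no count moved by 1.5 times. No paired analysis was possible because each group has 1 library. Depth limits genes near 100 UMIs, and Mki67 and Top2a can be missed in shallow cells.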

Other observations

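Some genes outside the naming rule differed strongly and are given as values, chosen after they were seen. Tspo, a mitochondrial outer membrane protein, stood at 697 CPM in the ground members (682 to 711) and 338 CPM in running members (327 to 349), a log2 ratio of -1.04, running over ground. B cells held 278 and 195 CPM of Tspo. Cd38, an NAD-consuming surface enzyme, had 155 and 21 UMIs (log2 ratio -2.62) and Fam20c, a secretory pathway kinase, 120 and 10 UMIs (-3.32). Nrp1, neuropilin 1, stood at 18.4 and 40.5 CPM (1.14) and Mpeg1, the pore-forming perforin-2, at 21.8 and 50.2 CPM (1.2).

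Immunoglobulin transcripts, which neutrophils do not make, differed in class between the libraries. Ighg1 had 129 UMIs in the ground members and 0 in the running members, which allows up to 0.344 CPM (exact 95% bound). Ighg2c had 8 and 101 UMIs and Ighg2b 33 and 102. The labels give no strain, and whether the libraries share one was not tested, which bears on the MHC class I ratios too. The stromal chemokine gene Cxcl12 had 12 UMIs in ground members and 116 in running members, 47 of them in 1 cell.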
